A study of Homo sapiens with 14 samples.

Results

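The miR-28, miR-151 and miR-708 family comprised 7 mature miRNAs: hsa-miR-28-5p, hsa-miR-28-3p, hsa-miR-151a-5p, hsa-miR-151a-3p, hsa-miR-151b, hsa-miR-708-5p and hsa-miR-708-3p. They were taken by name from the 2588 mature miRNAs counted in each of 2 assays of N7-methylguanosine (m7G), by a rule that uses names and no measured value. All 7 were detected in A549 cells and all 7 passed the low-count filter of both assays.

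The family descends from LINE2 repeats, mobile elements whose inverted copies fold into the hairpins from which these miRNAs are cut. A hairpin can yield a mature miRNA from its 5′ side (5p) and from its 3′ side (3p), and the pair act on different targets because each is read through its own seed, the bases that pair with messenger RNA. The arms of miR-28 have separate targets in colorectal cancer cells, miR-151a lies within the focal adhesion kinase gene PTK2 and its 5p arm targets the RhoA inhibitor ARHGDIA, and miR-708 lies within TENM4 and is induced by the stress factor CHOP.

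The study asked which miRNAs carry an internal m7G in A549 cells, an established human lung adenocarcinoma line. In BoRed-seq, total RNA was reduced with sodium borohydride and exposed to acid, which turns m7G into a site without a base. A biotin probe (ARP) tags that site for streptavidin pulldown, giving 2 Red libraries. The 2 Ctrl libraries came from RNA whose borohydride was quenched before the reaction. In the protocol, Ctrl RNA goes through the same acid and probe steps, and no separate route is given for it at the pulldown. Ctrl is thus not RNA saved before pulldown. In m7G-RIP-seq an antibody against m7G gave 5 IP libraries, set against 5 Input libraries of the RNA saved before immunoprecipitation. All RNA had first been decapped, so that the cap m7G would not be captured. The labels name no genetic change or drug in any group. They do not say whether replicates were separate cultures, so that p-values measure only the spread between these libraries, which may be technical.

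Mature sequences were found in the RefSeq miRNA table (GRCh38.p14) for 3 of the 7 members. These 3 are shown because the other members were not found there. They are the arm depleted by the antibody and the pair enriched by the chemistry. Each is written 5′ to 3′ with its seed, bases 2 to 8, in capitals.
hsa-miR-28-3p: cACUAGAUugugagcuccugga
hsa-miR-708-3p: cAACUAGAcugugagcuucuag
hsa-miR-708-5p: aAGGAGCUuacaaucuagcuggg
The first lies at chr3:188688834-188688855 on the plus strand, the second at chr11:79402032-79402053 and the third at chr11:79402077-79402099, both on the minus strand. In GENCODE v44 the MIR28 hairpin (chr3:188688781-188688866) lies within LPP and the MIR708 hairpin (chr11:79402022-79402109) within TENM4, each on the strand of its host and in no annotated exon of it. The longest run that both 3p sequences hold, UGUGAGCU, has 8 bases, yet no seed is shared by these 3 members. Among the 2370 mature names of the table, the seeds of miR-28-3p and miR-708-3p occur in no other name, and that of miR-708-5p occurs in 1 other, miR-3139. The table lacks the other members, miR-28-5p among them, so a seed shared with one of those would not be seen here. Guanine, the base that m7G modifies, makes up 6 of 22 bases of miR-28-3p, 5 of 22 of miR-708-3p and 7 of 23 of miR-708-5p, against a median share of 27.3% over the table. hsa-miR-28-5p, hsa-miR-151a-5p, hsa-miR-151a-3p and hsa-miR-151b are given by name.

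Library totals ran from 4678102 to 5874405 counts in Ctrl and from 242085 to 277498 in Red. They ran from 7097379 to 14874685 in Input and from 2854811 to 6452759 in IP. The first principal component of m7G-RIP-seq (57.1% of the variance) parted IP from Input. The second (15.3%) parted replicates 1 to 3 from replicates 4 and 5 on both sides, a division for which the labels give no batch, and values within each set stand beside the results they touch. All 5 epithelial markers of the miR-200 family were detected in the control libraries, with summed levels of 193 to 228 CPM (counts per 1000000 counts of the library) in Ctrl and 342 to 1000 in Input. Of 9 markers of blood, muscle, liver and neurons, 5 were detected in Ctrl (summed 613 to 698 CPM) and 7 in Input (308 to 496). miR-9-5p made up nearly all of that, at 609 to 697 CPM in Ctrl and 301 to 492 in Input, whereas miR-122-5p, the liver marker, and miR-206 of muscle had 0 counts in all control libraries.

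In Input and in Ctrl, the members spanned more than 3 orders of magnitude, on the CPM scale, relative to all mature miRNA counts of a library. Only Input is RNA saved before pulldown, so Ctrl levels need not be those of the cells. A read covers a whole mature miRNA, and no length correction was applied. In RNA pooled from many cells, fewer cells with a miRNA and fewer copies per cell cannot be told apart. In Input, miR-151a-3p was the most abundant member at 7444 ± 578 CPM (SD, n = 5), followed by miR-28-3p at 859 ± 46.3. miR-28-5p, at 88.2 ± 7.35, and miR-151a-5p, at 83.8 ± 27.8, did not differ beyond their spread. The lowest were miR-708-5p at 4.82 ± 0.830, miR-151b at 3.99 ± 1.56 and miR-708-3p at 2.46 ± 0.329, of which the first pair lay within their spread of each other. In Ctrl the order was alike at the top, with miR-151a-3p at 3100 ± 12.1 CPM (SD, n = 2) and miR-28-3p at 266 ± 26.9. miR-151a-5p at 79.0 ± 31.8 and miR-28-5p at 46.7 ± 6.55 overlapped within 1 SD of their means, and miR-151b (3.56 ± 1.91), miR-708-3p (2.47 ± 1.08) and miR-708-5p (1.94 ± 0.579) did so too.

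**Figure D1:**
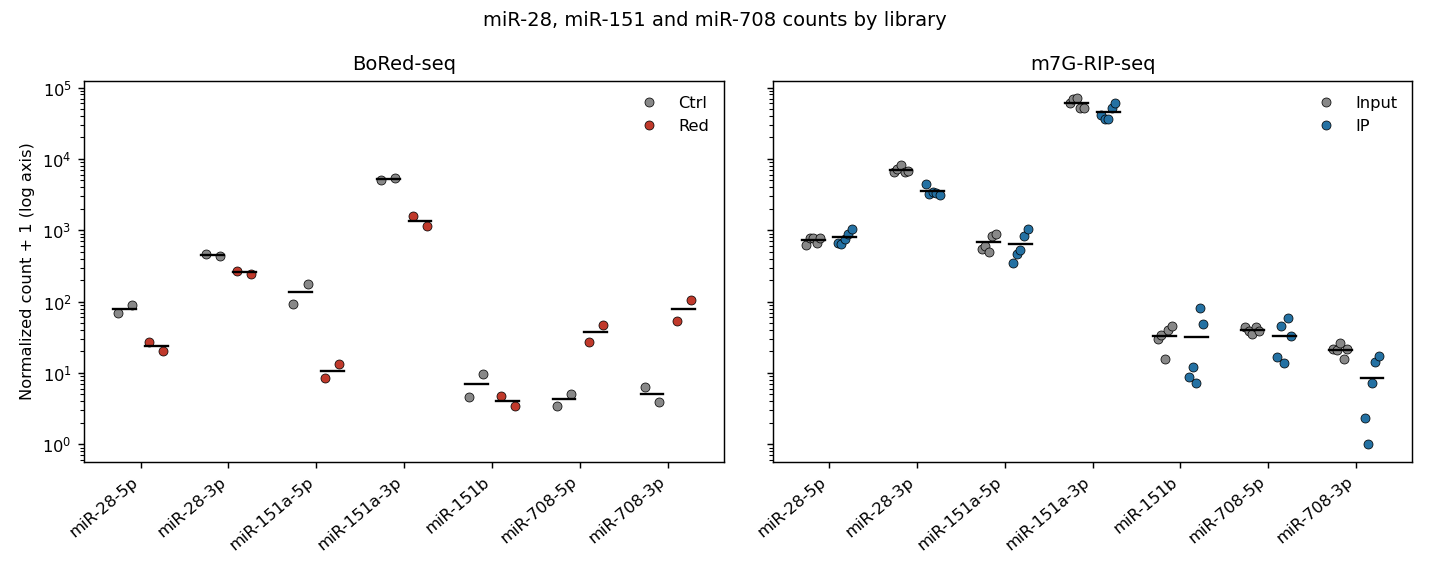
Normalized counts plus 1 (log axis) of the 7 members, 1 point per library with replicates from left to right and a bar at the mean, Ctrl and Red on the left, Input and IP on the right. In BoRed-seq the miR-708 arms stand higher in Red than in Ctrl while both arms of miR-28 and of miR-151a stand lower, and in m7G-RIP-seq only miR-28-3p has an IP range wholly below its Input range.

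The chemical pulldown divided the family. Both miR-708 arms were enriched in Red, by 11.3-fold (5p) and 18.8-fold (3p), and both arms of miR-28 and of miR-151a were depleted, from 1.75-fold for miR-28-3p to 13.2-fold for miR-151a-5p. Thus 2 of the 6 members with an adjusted p were enriched, against 32.2% of the 400 miRNAs tested, and 4 of 6 were depleted, against 27.2%. Of these 4, miR-28-5p and miR-151a-5p passed the low-count filter through their Ctrl counts alone, with under 10 counts in each Red library. A member this low in Red could be tested only if it was high in Ctrl. The median log2 enrichment of the 7 members was -1.01, beside -0.32 over the 453 miRNAs past the filter. That median is the value of miR-151b, the member without an adjusted p (SE 1.74). The Red and Ctrl libraries of 6 of the 7 members did not overlap, which was near the 82.8% over all miRNAs tested. An enrichment is the log2 ratio of pulldown over control from DESeq2, on counts normalized to the typical miRNA of the assay, and a miRNA is called at an adjusted p under 0.05 over all miRNAs tested.

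The antibody pulldown left most of the family near its Input level. In the main fit, which did not pair libraries, miR-28-3p was depleted in IP by 1.99-fold, and the other 6 members were not called. In that fit no member was enriched, against 27.3% of the 670 miRNAs tested, and 1 of 7 was depleted, against 29.9%. With the replicate number as a block, DESeq2 also called miR-708-3p depleted (-2.05, adjusted p = 0.0389). At an unadjusted p under 0.05, DESeq2 gave 0 members higher in IP and 2 lower (miR-28-3p and miR-151a-3p), and edgeR also called 0 enriched. The IP and Input libraries of 1 of the 7 did not overlap, against 42.4% over all. The members' median log2 enrichment was -0.24, beside 0.02 over all 670.

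**Figure D2:**
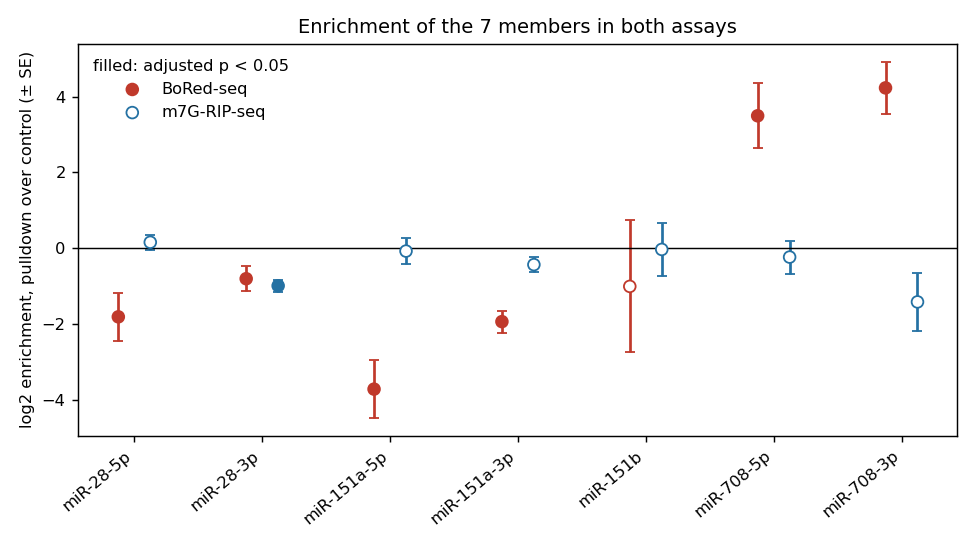
Log2 enrichment of pulldown over control (points, with bars of ± 1 SE) of each member in BoRed-seq (red) and m7G-RIP-seq (blue), filled where the adjusted p was under 0.05. The BoRed-seq points run from -3.72 for miR-151a-5p to 4.23 for miR-708-3p, whereas those of m7G-RIP-seq run from -1.42 to 0.16.

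miR-28-3p, the major arm of its hairpin, was lower after both pulldowns. Its normalized counts were 463 and 429 in the Ctrl libraries and 267 and 245 in the Red libraries. Both Red values lay below both Ctrl values, and the log2 enrichment was -0.81 ± 0.32 (SE, adjusted p = 0.0231). This small depletion depended on the scaling and on single libraries. Without Red replicate 1 it was -0.49 (adjusted p = 0.399), without Red replicate 2 it was -0.59 (adjusted p = 0.312), and with factors from total counts, which moved the median of all miRNAs by 1.08, it was 0.31 (adjusted p = 0.508). Relative to the library total, miR-28-3p was at 266 ± 26.9 CPM in Ctrl and 329 ± 44.5 in Red (SD, n = 2). The antibody result was firmer. Normalized counts were 6534, 7249, 8085, 6451 and 6787 in Input replicates 1 to 5 and 4436, 3236, 3469, 3355 and 3143 in IP replicates 1 to 5. Every IP library lay below every Input library, with IP replicate 1 the highest of its group. The log2 enrichment was -0.99 ± 0.15 (adjusted p = 3.60e-10, two-sided exact permutation p = 0.00794, the smallest that 5 against 5 libraries can give). It was -0.996 in replicates 1 to 3 alone and -1.11 in replicates 4 and 5 alone.

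miR-28-5p, the minor arm, was depleted by the chemistry and not by the antibody. Normalized counts were 68.4 and 89.2 in Ctrl and 25.9 and 19.6 in Red, from 7 and 8 raw counts in the Red libraries. The groups did not overlap and the log2 enrichment was -1.81 ± 0.63 (adjusted p = 0.00829), a 3.51-fold lower level. The call was lost without Red replicate 1 (-1.63, adjusted p = 0.0948), without Red replicate 2 (-1.45, adjusted p = 0.153) and with total-count factors (-0.69, adjusted p = 0.422). Without either Ctrl library the arm fell under the low-count filter and could not be tested, so no fit with 1 library left out kept the call. In m7G-RIP-seq, normalized counts were 616, 775, 784, 656 and 770 in Input and 665, 631, 765, 899 and 1051 in IP. IP replicates 4 and 5 were the highest libraries and the other IP libraries lay within the Input range, giving a log2 enrichment of 0.16 ± 0.19 (adjusted p = 0.505). It was -0.10 in replicates 1 to 3 and 0.37 in replicates 4 and 5. With total-count factors, which moved the median of all miRNAs by 0.36, miR-28-5p was called enriched (0.49, adjusted p = 0.0126).

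The miR-151a hairpin was depleted by the chemistry on both arms. miR-151a-3p, its major arm and the most abundant member, had normalized counts of 5025 and 5407 in Ctrl and 1574 and 1150 in Red. The groups were well apart, with a log2 enrichment of -1.94 ± 0.29 (adjusted p = 1.43e-10), a 3.84-fold lower level in Red. miR-151a-5p had 91.9 and 177 in Ctrl and 7.41 and 12.2 in Red, from 2 and 5 raw counts in the Red libraries. Its log2 enrichment of -3.72 ± 0.76 (adjusted p = 2.85e-06) was the most negative of the family and ranked 17 of 400 from the lowest. Summed over libraries and scaled by the size factors, its counts were 12.4 times higher in Ctrl, with a 95% counting interval of 5.997 to 31.0. With 1 library left out, the 3p arm ran from -2.77 to -1.58. The 5p arm was at -4.03 and -3.07 without a Red library and could not be tested without a Ctrl library. It entered these fits and the main fit through its Ctrl counts alone, so its direction and rank there are no independent support. With total-count factors both calls were kept, at -0.85 (3p, adjusted p = 0.0167) and -2.57 (5p, adjusted p = 0.00372).

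In m7G-RIP-seq neither arm of miR-151a passed the threshold, and for the 3p arm the sets of replicates differed. Normalized counts of miR-151a-3p were 60130, 69993, 70583, 52117 and 52478 in Input and 41112, 35971, 36684, 51264 and 60702 in IP. IP replicates 1 to 3 lay below every Input library, whereas IP replicates 4 and 5 lay at the level of their own Input libraries or above it. The log2 enrichment was -0.44 ± 0.21 (adjusted p = 0.0584, two-sided exact permutation p = 0.0397 over unpaired libraries). With the replicate number as a block it was -0.45 ± 0.23 (DESeq2, adjusted p = 0.0754). In replicates 1 to 3 alone it was -0.84 ± 0.11 (adjusted p = 9.63e-13), and in replicates 4 and 5 alone it was 0.01 ± 0.12 (adjusted p = 0.931). The arm was called depleted without IP replicate 5 (-0.53, adjusted p = 0.0179) and without Input replicate 1 (-0.50, adjusted p = 0.04996). What divided the sets was not tested. miR-151a-5p had 541, 595, 496, 832 and 898 in Input and 344, 458, 520, 829 and 1035 in IP. Both groups were higher in replicates 4 and 5 and overlapped, with a log2 enrichment of -0.08 ± 0.33 (adjusted p = 0.860). By set it was -0.33 in replicates 1 to 3 and 0.021 in replicates 4 and 5.

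miR-151b is a shorter copy of the miR-151a-5p sequence, so that reads of the pair can be shared and its counts are uncertain. It had 13 and 23 raw counts in Ctrl and 1 count in each Red library, which DESeq2 set aside without an adjusted p at a log2 enrichment of -1.01 ± 1.74. The ratio of its scaled counts, Ctrl over Red, was 1.94 with a 95% counting interval of 0.499 to 16.6, so that no difference was detectable at this depth. Raw counts were 26, 52, 21, 62 and 83 in Input and 6, 9, 3, 80 and 38 in IP. After normalization IP replicates 1 to 3 were below the Input range and IP replicates 4 and 5 were above it, for a log2 enrichment of -0.03 ± 0.70 (adjusted p = 0.970). Replicates 1 to 3 alone gave -1.62 (adjusted p = 0.151), and replicates 4 and 5 gave 0.57 (adjusted p = 0.409). In GENCODE v44 the MIR151A hairpin (chr8:140732564-140732653, minus strand) lies within PTK2 on the same strand, and MIR151B (chr14:100109419-100109514, minus strand) lies within the span of EVL, which is on the opposite strand. Neither overlaps an annotated exon of another gene.

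The miR-708 arms were among the rarest members in Input and in Ctrl and the only members called enriched in Red over Ctrl. miR-708-3p had 19 and 8 raw counts in Ctrl and 14 and 42 in Red, although the Red libraries held far fewer counts in all. Normalized, these were 5.26 and 2.97 in Ctrl and 51.8 and 103 in Red, with both Red libraries above both Ctrl libraries. The log2 enrichment was 4.23 ± 0.69 (adjusted p = 3.75e-09), rank 50 of 400 from the highest. Without Ctrl replicate 2, Red replicate 1 or Red replicate 2 the log2 enrichment stayed between 3.29 and 4.99. Without Ctrl replicate 1 the arm could pass the filter only through its Red counts, so that value is not given. miR-708-5p, an arm known to target rhodopsin in stressed photoreceptors, had 9 and 11 raw counts in Ctrl and 7 and 19 in Red, normalized to 2.49 and 4.09 and to 25.9 and 46.5. Again the groups did not overlap, and the log2 enrichment was 3.49 ± 0.86 (adjusted p = 0.000133), rank 59 of 400. Without Ctrl replicate 1 it was 2.37 (adjusted p = 0.144), and without Ctrl replicate 2 or Red replicate 2 the arm fell under the low-count filter and could not be tested.

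The direction of the miR-708 arms was common among miRNAs as rare in Ctrl. Of the 103 miRNAs tested with a mean normalized Ctrl count under 10, a limit chosen after the values were seen, 68 (66.0%) were enriched, 0 were depleted by DESeq2 (also 0 at an unadjusted p under 0.05), and the median log2 enrichment was 3.38 (quartiles 1.39 and 6.10). A miRNA this rare could pass the filter more readily where its Red counts were high. At the Red depth it would have few raw counts even if unchanged. A depletion could thus hardly be called, and no conclusion is drawn from the 0 depleted. With the Ctrl libraries thinned to the Red depth, miR-708-5p fell under the filter and miR-708-3p could pass it only through its Red counts, so that no thinned value is given for either arm. How far depth and the filter account for the direction was not tested.

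In m7G-RIP-seq the miR-708 arms were not enriched. miR-708-3p had 18, 31, 36, 24 and 39 raw counts in Input and 1, 0, 3, 13 and 13 in IP, so that IP replicates 1 to 3 were at or under 3 counts. Normalized counts were 14.9 to 25.2 in Input, with a median of 20.3, and 0.00 to 16.5 in IP, with a median of 6.32. IP replicate 5 exceeded Input replicate 4 and the other IP libraries lay below all of Input. The log2 enrichment was -1.42 ± 0.76 (adjusted p = 0.0961, two-sided exact permutation p = 0.0159 over unpaired libraries). With the replicate number as a block it was -2.05 ± 0.91 (adjusted p = 0.0389), without IP replicate 5 it was -1.89 (adjusted p = 0.0393), and it was -3.27 (adjusted p = 0.0333) in replicates 1 to 3 and -0.36 (adjusted p = 0.782) in replicates 4 and 5. miR-708-5p had 38, 59, 48, 69 and 71 raw counts in Input and 12, 36, 6, 57 and 25 in IP. After normalization IP replicates 1, 3 and 5 were below the Input range and IP replicates 2 and 4 were above it, for a log2 enrichment of -0.24 ± 0.43 (adjusted p = 0.665). It was -0.65 in replicates 1 to 3 and 0.074 in replicates 4 and 5.

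The enrichments of 5 of the 6 members with a value in both assays differed between the chemistry and the antibody, against 38.0% of the 384 miRNAs tested. The difference, BoRed-seq minus m7G-RIP-seq on the log2 scale, was set against the DESeq2 standard errors of its terms in a two-sided z test. It was positive for miR-708-3p, at 5.65 ± 1.02 (adjusted p = 3.64e-07), and for miR-708-5p, at 3.73 ± 0.96 (adjusted p = 0.000622). It was negative for miR-151a-5p, at -3.64 ± 0.83 (adjusted p = 7.40e-05), for miR-28-5p, at -1.97 ± 0.66 (adjusted p = 0.0106), and for miR-151a-3p, at -1.50 ± 0.36 (adjusted p = 0.000154). miR-28-3p, at 0.19 ± 0.36 (adjusted p = 0.722), was the one member whose depletion did not differ detectably between the assays. Leaving out Red replicate 1 or 2 ended the difference of miR-28-5p (-1.78, adjusted p = 0.0996, and -1.61, adjusted p = 0.165), leaving out Red replicate 2 that of miR-151a-3p (-1.14, adjusted p = 0.0542), and leaving out Ctrl replicate 1 that of miR-708-5p (2.61, adjusted p = 0.173). With total-count factors, miR-28-5p (-1.19, adjusted p = 0.177) and miR-151a-3p (-0.75, adjusted p = 0.0773) were not called, and miR-28-3p was (0.95, adjusted p = 0.0456).

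The arms of each hairpin were compared within libraries, where no size factor is needed, as the log2 ratio of 5p over 3p counts after adding 0.5 to each. The miR-28 hairpin shifted toward its 5p arm in IP. The 5p arm made up 8.62%, 9.66%, 8.84%, 9.23% and 10.2% of miR-28 counts in Input replicates 1 to 5 and 13.03%, 16.3%, 18.1%, 21.1% and 25.1% in IP replicates 1 to 5. Every IP library exceeded every Input library, with means of 9.31% ± 0.635 and 18.7% ± 4.59 (SD, n = 5). The log2 ratio rose by 1.14 ± 0.22 (limma, adjusted p = 0.00185), a 2.20-fold change with a 95% interval of 0.64 to 1.63 on the log2 scale. The two-sided exact permutation p was 0.00794, the smallest that 5 against 5 unpaired libraries can give. With the replicate number as a block, the rise was 1.14 ± 0.19 (limma, adjusted p = 0.00334). The shift was called in replicates 1 to 3 alone (0.91, adjusted p = 0.0121) and in replicates 4 and 5 alone (1.48, adjusted p = 0.00298), and without any 1 library it stayed between 0.99 and 1.28.

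In BoRed-seq the miR-28 ratio moved the other way without passing the threshold. The 5p arm made up 12.9% and 17.2% in Ctrl and 8.86% and 7.41% in Red, where the 95% Wilson intervals of the Red shares were 4.36% to 17.2% and 3.80% to 13.9%. Both Red shares were below both Ctrl shares, for a log2 change of -0.91 ± 0.44 (limma, adjusted p = 0.183, two-sided exact permutation p = 0.333, the smallest that 2 against 2 libraries can give). The change for miR-151a was larger, with 5p shares of 1.80% and 3.16% in Ctrl and 0.468% and 1.05% in Red. The log2 change was -1.56 ± 0.52 (adjusted p = 0.0753, two-sided exact permutation p = 0.333), with 95% Wilson intervals of 0.129% to 1.69% and 0.450% to 2.44% for the Red shares. It was called with the replicate number as a block, at -1.56 ± 0.30 (adjusted p = 0.00788). The labels do not say whether a number marks 1 RNA sample. For miR-708 the shares were 32.1% and 57.9% in Ctrl and 33.3% and 31.1% in Red. These overlapped, for a log2 change of -0.74 ± 0.74 (adjusted p = 0.485, two-sided exact permutation p = 0.667). Without Ctrl replicate 1 the miR-708 change was -1.47. In that fit miR-708-3p passed the filter only through its Red counts, so no conclusion is drawn from it. No hairpin of the family was called in BoRed-seq by limma without the block, against 35.0% of the 100 miRNAs with both arms past the filter, and at an unadjusted p under 0.05 there was 1, miR-151a.

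In m7G-RIP-seq 1 of the 3 hairpins was called, against 45.8% of 155, and the median change over those 155 was 0.38 toward the 5p arm. For miR-151a the 5p share was 0.892%, 0.843%, 0.698%, 1.57% and 1.68% in Input and 0.830%, 1.26%, 1.40%, 1.59% and 1.68% in IP. The shares overlapped, with replicates 4 and 5 alike in both groups, and the log2 change was 0.30 ± 0.31 (limma, adjusted p = 0.443, two-sided exact permutation p = 0.421). By set it was 0.498 in replicates 1 to 3 and 0.0070 in replicates 4 and 5. For miR-708 the 5p arm was the larger in every RIP library, at 57.1% to 74.2% in Input (median 65.6%) and 65.8% to 100% in IP (median 81.4%). The highest IP share, of 36 counts against 0, had a 95% Wilson interval of 90.4% to 100%. The log2 change was 1.68 ± 0.95 (adjusted p = 0.173, two-sided exact permutation p = 0.103), and without that library, IP replicate 2, it was 0.79. In replicates 1 to 3 it was 2.59, and in replicates 4 and 5 it was 0.32.

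**Figure D3:**
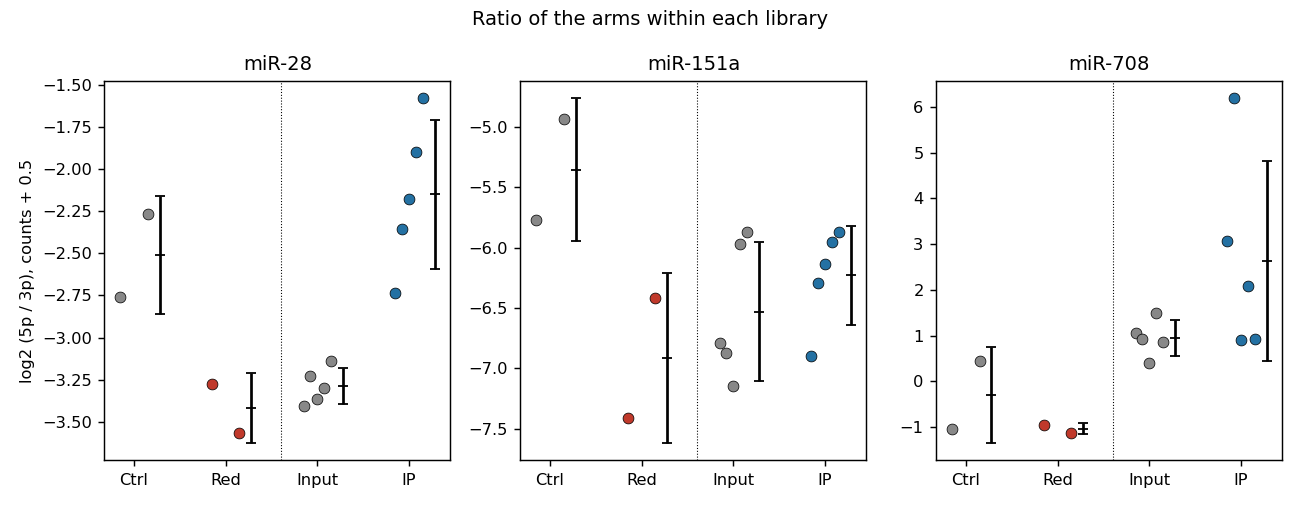
Log2 ratio of 5p over 3p counts (0.5 added to each) in every library for miR-28, miR-151a and miR-708, with the mean ± SD beside the points of each group. The 5 IP points of miR-28 all lie above the 5 Input points, the IP and Input points of miR-151a and miR-708 overlap, and the vertical scale differs between the panels.

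**Figure D4:**
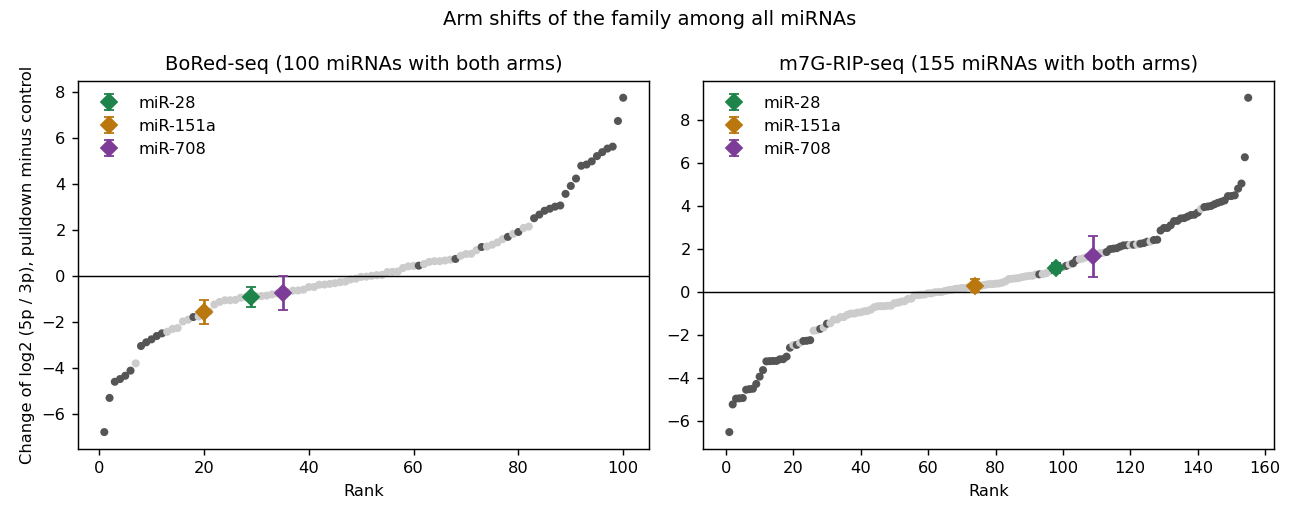
Change of the log2 ratio of 5p over 3p, pulldown minus control, for all miRNAs with both arms past the filter, ranked from lowest to highest (dark grey where the adjusted p was under 0.05), with the 3 hairpins of the family as diamonds with bars of ± 1 SE. In BoRed-seq (100 miRNAs) all 3 lie below 0, at ranks 20, 29 and 35, and in m7G-RIP-seq (155 miRNAs) all 3 lie above 0, at ranks 74, 98 and 109.

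Pearson's r between the normalized log2 levels of the arms over the 10 libraries, which fall into Input and IP, was -0.33 for miR-28, 0.38 for miR-151a and 0.30 for miR-708. Over the same 10 libraries and 309 candidates with a mean of at least 100, the miRNA most like miR-28-3p was miR-185-5p (r = 0.99). Its depletion in IP (-1.18 ± 0.14, adjusted p = 7.84e-17) follows in part from picking it over Input and IP libraries together. The one most like miR-28-5p was miR-30e-3p (r = 0.88). For miR-151a-5p it was miR-26b-5p (r = 0.93), and for miR-151a-3p it was miR-30d-5p (r = 0.90), with log2 enrichments in IP of 0.32 ± 0.46 (adjusted p = 0.572) and -0.94 ± 0.22 (adjusted p = 7.36e-05).

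Of 3 further miRNAs that also derive from LINE2, miR-95-5p and miR-325 had 0 counts in all 14 libraries, and miR-95-3p was measured. It had 31 to 63 raw counts in Ctrl and 0 to 3 in Red, with a log2 enrichment of -1.54 ± 1.37 (adjusted p = 0.336). In m7G-RIP-seq it had 202 to 391 raw counts in Input and 6 to 101 in IP, and it was depleted (-1.82 ± 0.49, adjusted p = 0.000544).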

How the data were processed

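Small RNA of A549 cells was sequenced in 14 libraries (BoRed Red and Ctrl, n = 2 each, and RIP IP and Input, n = 5 each), grouped by their titles. The deposited values were raw counts per mature miRNA, not normalized and not pooled. Per the study's methods, the authors trimmed reads with Trimmomatic, aligned them to GRCh38 with STAR, allowing 1 mismatch and up to 10 loci, and counted them with featureCounts over miRBase 22. The submitters' processing notes name Bowtie2, so the aligner is uncertain. Reads that fit several loci make counts of near-identical miRNAs, such as miR-151a-5p and miR-151b, uncertain.

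A miRNA entered the fit with at least 10 counts, in 2 or more libraries for BoRed-seq and in 5 or more for m7G-RIP-seq. Enrichment was fitted with DESeq2 1.42.0 (R 4.3.3, Wald test, medians of ratios, unshrunken log2), and p-values were adjusted over all miRNAs by the Benjamini-Hochberg method. Enrichments are relative to the typical miRNA, so that a change of most miRNAs together would not be seen. Arm ratios were fitted with limma 3.58.1 and mean trend, beside exact permutation tests over libraries. Alternatives used edgeR 4.0.16, other factors and filters, a replicate block, and libraries left out. No library pair of a group agreed within sampling noise. Intervals cover counting error only, since there were no molecular identifiers, and 3 counts were taken as the limit for a count of 0. In m7G-RIP-seq, same-numbered IP and Input libraries deviated together in every pair (r from 0.146 to 0.387). In 2 of 5 pairs, however, the Input correlated better with an IP of another number. Each Input is an aliquot taken before immunoprecipitation, so the numbers were taken to pair IP with Input. The main fits and the exact permutation tests did not use this pairing, and only the fits with the replicate number as a block did.

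The members were listed by name and no measured value was used as a criterion, but they, the lists and the tests were chosen with earlier results of these data known. Named miRNAs are the 7 members, the 3 further LINE2-derived miRNAs, the markers, and for each member with a mean of at least 100 in m7G-RIP-seq the miRNA most correlated with it.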

Additional observations from a re-analysis of the deposited data

Results flagged for a closer look

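Among 20 groups of 5 libraries tested (the 7 members and the 3 arm ratios, in Input and in IP), 1 had a library far from the others by Dixon's criterion, and chance would give about 1 in 20 such groups. It was miR-28-3p in IP, where replicate 1 had 4436 normalized counts, with a gap to its nearest neighbour of 0.748 of the group's range (critical value 0.71). Without this library miR-28-3p was still depleted (-1.06).

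The log2 enrichment differed between the chemistry and the antibody for 5 members, by 5.65 for miR-708-3p, 3.73 for miR-708-5p, -1.50 for miR-151a-3p, -1.97 for miR-28-5p and -3.64 for miR-151a-5p. The miR-708 values rest on 8 to 19 raw counts per Ctrl library.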

How the results depend on the processing

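In BoRed-seq, the 2 enriched members became 0 and the 4 depleted ones 2 with at least 10 counts in every library, where 2 members could be tested. With the Ctrl libraries thinned to the Red depth, where 4 could be tested, 1 was enriched, passing the filter through its Red counts alone, and 2 were depleted, miR-151a-5p passing it through its Ctrl counts alone, also with total-count factors added (an alternative chosen after seeing the data). Total-count factors alone left 2 depleted. Leaving out 1 library gave 1 to 2 enriched and 2 to 2 depleted. Without Ctrl replicate 1, 4 members could be tested and without Ctrl replicate 2, 3 could, so that these drops are in part untested members. Without Ctrl replicate 1, miR-708-3p passed the filter through its Red counts alone. Hairpins with an arm difference went from 0 to 1 with the replicate block (miR-151a, -1.56, adjusted p = 0.00788) and with thinning. Without Ctrl replicate 1 the miR-708 hairpin entered only through the Red counts of its 3p arm, so that fit is not counted. In BoRed-seq the protocol prepares a Red and a Ctrl reaction from each RNA sample, and same-numbered libraries correlated at 0.110 in their deviations, but the labels do not say that a number marks 1 RNA sample. No hairpin of the family kept both arms with 10 counts in every BoRed-seq library.

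In m7G-RIP-seq, total-count factors gave 1 enriched member in place of 0. The 1 depleted member became 2 with TMM factors and with the replicate block, 3 in replicates 1 to 3, and 1 to 3 with 1 library left out. The block changed the call of miR-708-3p and of no other member in this assay. Differences between assays went from 5 to 1 with 10 counts in every library, and were 2 to 5 with 1 library left out. Total-count factors raised the share of enriched among called miRNAs from 54.2% to 79.2% in BoRed-seq (175 enriched, 46 depleted, against 129 and 109) and from 47.8% to 58.6% in m7G-RIP-seq. TMM factors moved the BoRed-seq median by -0.19.

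The direction turned for these values, of which only the first had been called. The BoRed-seq log2 enrichment of miR-28-3p was 0.31 with total-count factors and 0.40 with thinning as well. In m7G-RIP-seq, total-count factors gave 0.23 (miR-151a-5p), 0.26 (miR-151b) and 0.081 (miR-708-5p). Replicates 4 and 5 alone gave 0.021, 0.57 and 0.074 for these and 0.014 for miR-151a-3p, and replicates 1 to 3 gave -0.10 for miR-28-5p. With 1 library left out, miR-151a-5p ran from -0.28 to 0.11 and miR-151b from -0.74 to 0.24. The assay difference of miR-28-3p was -0.0073 with TMM, -0.055 with 10 counts in every library, -0.26 as an interaction term, and -0.54 to 0.50 with 1 library left out. The causes were not tested. Among the other values, 148 kept direction and side of the threshold, 8 newly passed it and 4 lost it under the alternatives, as did 178, 4 and 9 with 1 library left out. In BoRed-seq, depth limits the miR-28 and miR-151a 5p arms through 2 to 8 counts per Red library and the miR-708 arms through 8 to 19 counts per Ctrl library.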
